A study of Mus musculus with 13 samples.

Results

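The genes described here are the 9 genes of nitric oxide synthesis and arginine handling Nos1, Nos2, Nos3, Arg2, Ass1, Asl, Ddah1, Ddah2 and Gch1, taken as the rows of the count and TPM tables that carry these symbols. They are 9 of the 20270 genes in the tables, and all 9 were among the 15315 genes that passed the filter on low counts and were tested. Nitric oxide is made from arginine by the nitric oxide synthases, which need tetrahydrobiopterin as a cofactor. The citrulline released in the reaction can be turned back into arginine, arginase draws on the same arginine, and methylated arginines block the synthases until they are degraded. In the lung, the endothelial synthase is known for keeping vessels relaxed and the inducible synthase for the burst of nitric oxide made by activated macrophages and epithelial cells.

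Lung RNA was sequenced in 13 libraries in a study of pulmonary fibrosis, the scarring that follows bleomycin, and of the part that the cannabinoid receptor CB1R plays in it. The Control group (4 libraries) and the WT bleomycin group (5 libraries) were wild type. The CB1R KO bleomycin group (4 libraries) lacked Cnr1, which codes for CB1R, in all cells on the C57BL/6J background. The mice of these last groups had received bleomycin at 1 U per kg into the oropharynx and were taken on day 14, and according to the methods saline was the vehicle. The purchased C57BL/6J mice were male and 13 weeks old, and the age of the CB1R KO mice is not given in the sources used here. No CB1R KO lungs without bleomycin are analysed here, so the effect of the deletion alone cannot be told apart from its effect under bleomycin. Values of single libraries follow the order of the numbers in the labels, which are 3, 21, 24 and 26 for Control, 4, 2, 5, 4-B2 and 7 for WT bleomycin, and 8, 9, 10 and 11 for CB1R KO bleomycin.

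Of the 13 libraries, 12 held 14615904 to 16662580 estimated counts, while 53463884 were held by CB1R KO replicate 11. The labels of Control replicate 26 and of WT replicates 4-B2 and 7 begin their words with capitals, and those of the other libraries in lower case. WT replicates 4 and 4-B2 share the number 4, and whether they came from separate mice is not given in the labels. Leaving out either changed no member's call. The defining markers of lung were abundant in every group, with at least 92050 estimated counts of Sftpc, the surfactant protein of type II cells. Cnr1 was counted in all groups, at 27.0 to 69.0 estimated counts in Control, 50 to 110.0 in WT bleomycin and 41.0 to 188.1 in CB1R KO bleomycin libraries, and these counts do not separate the libraries labelled CB1R KO from the others. Whether the counted part of Cnr1 lies outside the deletion is not given in the sources used here.

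Levels of different genes can be compared in TPM, a unit that is scaled for transcript length and library total. On this scale Ddah2 was the most abundant member in every library, with a mean of 80.6 TPM ± 9.64 (SD, n = 4) in Control, 91.7 ± 14.8 (n = 5) in WT bleomycin and 101.7 ± 15.4 (n = 4) in CB1R KO bleomycin lungs. Ass1 came next at 31.6 ± 3.61, 42.2 ± 2.01 and 33.6 ± 5.57 TPM, and it lay above the following gene in every library. Asl, Ddah1 and Nos3 followed with means over all 13 libraries of 21.6, 21.4 and 18.2 TPM, and these neighbours overlapped. Gch1 at 13.6 and Arg2 at 10.1 TPM also overlapped with each other. Nos2 averaged 5.70 TPM over all libraries and Nos1 0.0764 TPM, and every library had more Nos2 than Nos1.

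Among the synthases, transcripts of the endothelial form Nos3 made up most of the summed TPM in every library. In Control lungs Nos3 held 87.5% ± 3.83 (SD, n = 4) of the sum and the inducible form Nos2 11.99% ± 4.09. After bleomycin Nos3 held 72.3% ± 6.85 (n = 5) in WT and 74.4% ± 2.25 (n = 4) in CB1R KO lungs, and Nos2 held 27.4% ± 6.91 and 25.4% ± 2.21. The share of the neuronal form Nos1 was at most 0.793% in any library. The summed level of the 3 synthases was 16.0 ± 0.439 TPM in Control, 29.6 ± 3.23 in WT bleomycin and 25.0 ± 4.07 in CB1R KO bleomycin libraries. Each of the 9 bleomycin libraries lay above each of the 4 Control libraries in this sum.

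**Figure D1:**
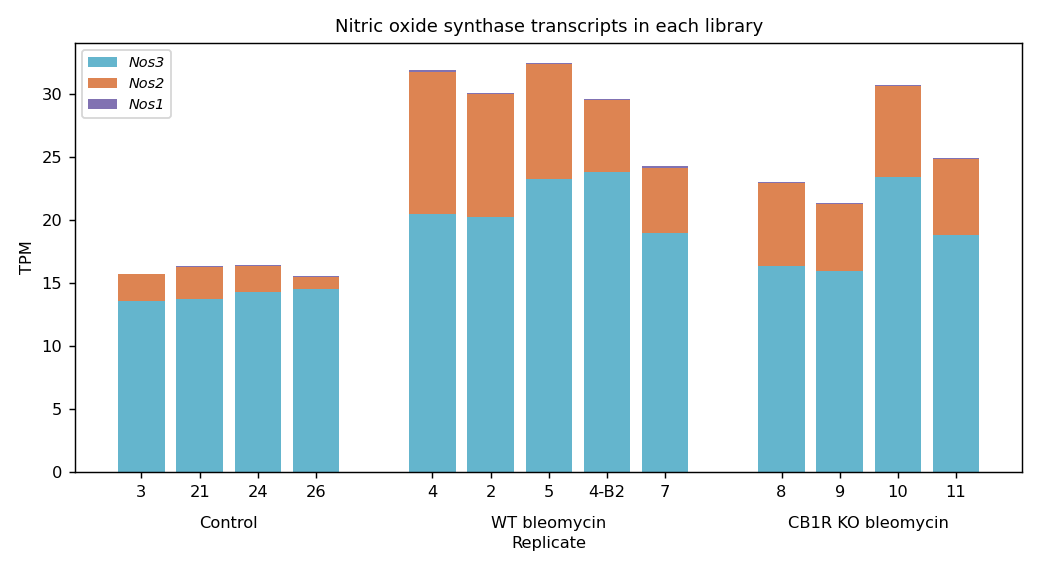
Stacked bars give the TPM of Nos3, Nos2 and Nos1 in each library, with replicate numbers and groups on the x axis. The sum lies between 15.6 and 16.4 TPM in Control libraries and between 21.3 and 32.4 TPM in bleomycin libraries, and Nos1 is barely visible.

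The question of the first comparison is what bleomycin does to these genes in wild type lungs. Nos2, Nos3, Ass1, Ddah1 and Gch1 rose, so that 5 of the 9 members passed the threshold (adjusted p under 0.05, edgeR quasi-likelihood test with Benjamini-Hochberg adjustment over the 15315 genes) and all 5 were higher. Of all genes tested, 48.9% passed in this comparison, 25.0% higher and 23.9% lower. The members had a median log2 fold change of 0.38, beside -0.00827 over all genes tested. These are bulk samples, in which fewer cells of a type and less RNA per cell cannot be told apart. Nos2, Nos3, Ass1 and Gch1 had no overlap between WT bleomycin and Control libraries, a pattern that 21.5% of all genes tested showed in this direction.

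The question of the second comparison is whether loss of CB1R changes these genes in bleomycin lungs. None of the 9 members passed the threshold between CB1R KO and WT bleomycin in edgeR, where 0.979% of all genes tested passed, 0.359% higher and 0.620% lower. At an unadjusted p under 0.05 the count was 1 of the 9 members, Ass1, beside 17.0% of all genes tested. DESeq2 also called Ass1, while limma on log2 TPM called 0 members. Nos1 and Ass1 were lower in every CB1R KO library than in every WT bleomycin library, which 3.10% of all genes tested were. In both genes the nearest libraries of these groups were close, and Nos1 rested on few counts. CB1R KO replicate 10 had the highest level of the 4 CB1R KO libraries in Nos2, Nos3, Ass1, Ddah1 and Gch1.

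The last comparison sets CB1R KO bleomycin lungs against the same Control lungs. In it 4 members passed the threshold, all higher, namely Nos2, Nos3, Ddah1 and Gch1, and 35.4% of all genes tested passed, 19.0% higher and 16.3% lower. These 4 members were without overlap between the groups, as were 17.7% of all genes tested in that direction. The comparisons share libraries, so their values for each member are given side by side below.

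**Figure D2:**
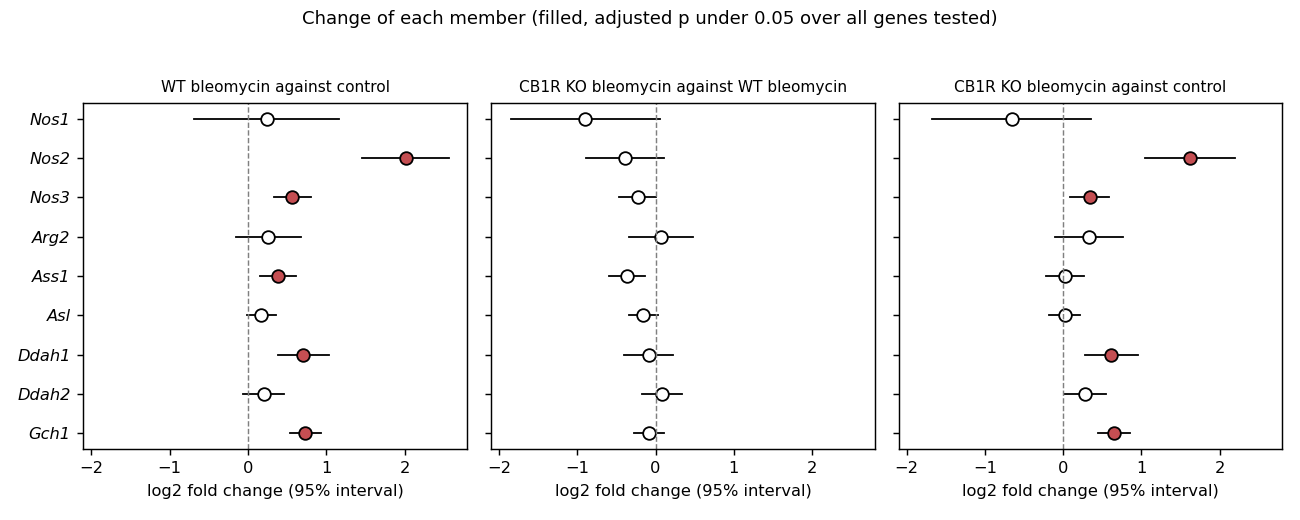
Points give the log2 fold change of each member and lines its 95% interval in the 3 comparisons, with filled points where the adjusted p was under 0.05. In the first panel 5 points are filled, in the second 0 and in the third 4, and every filled point is above 0.

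Promoter sequence was matched by symbol for 5 of the 9 members, Ass1, Ddah1, Nos1, Gch1 and Ddah2, in RefSeq on GRCm38.p6. The 250 bases before the annotated start are shown for Gch1, Ddah1 and Ass1, the members with an entry that rose after bleomycin in WT lungs, so that their composition can be compared. Capitals mark the GC box GGGCGG, the CCAAT box CCAAT and the TATA box TATAAA, each searched on both strands, where a capital run on the other strand reads as its complement. Of 32851 promoter windows of the same length, 32.7% hold the GC box, 33.8% the CCAAT box and 12.4% the TATA box. The Gch1 window lies at chr14:47189414-47189663 on the minus strand, the Ddah1 window at chr3:145758442-145758691 on the plus strand, and the Ass1 window at chr2:31470020-31470269 on the plus strand.
Gch1: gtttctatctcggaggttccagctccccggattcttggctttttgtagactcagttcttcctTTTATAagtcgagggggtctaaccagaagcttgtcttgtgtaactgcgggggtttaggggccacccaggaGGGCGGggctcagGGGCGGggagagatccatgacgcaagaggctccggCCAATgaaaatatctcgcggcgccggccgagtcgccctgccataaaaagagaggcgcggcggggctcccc
Ddah1: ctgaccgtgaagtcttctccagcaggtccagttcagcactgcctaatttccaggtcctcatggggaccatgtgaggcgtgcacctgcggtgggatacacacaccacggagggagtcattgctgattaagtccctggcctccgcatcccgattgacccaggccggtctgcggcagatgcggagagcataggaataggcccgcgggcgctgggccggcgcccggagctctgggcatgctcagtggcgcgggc
Ass1: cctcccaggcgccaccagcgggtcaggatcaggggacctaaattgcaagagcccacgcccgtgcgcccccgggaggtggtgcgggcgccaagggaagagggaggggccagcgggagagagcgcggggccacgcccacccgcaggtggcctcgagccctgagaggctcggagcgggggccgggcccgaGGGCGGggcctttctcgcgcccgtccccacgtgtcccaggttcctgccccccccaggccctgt
The Gch1 window held 2 GC boxes, 1 CCAAT box and 1 TATA box and was 59.2% G and C. The Ass1 window held 1 GC box in 75.6% G and C. The Ddah1 window held none of these letters in 64% G and C. A match is a description of the letters and not of a bound site.

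Nos2, the inducible synthase, had the largest fold change of the members in both comparisons with Control. In CPM, counts relative to the library total scaled by the TMM method, it was at 5.35, 6.55, 5.38 and 2.45 in Control, at 26.5, 23.1, 22.5, 15.0 and 12.8 in WT bleomycin, and at 15.4, 12.8, 18.0 and 14.8 in CB1R KO bleomycin libraries. All bleomycin libraries were above all Control libraries, while CB1R KO and WT bleomycin libraries overlapped. Nos2 rose 4.04-fold in WT lungs, a log2 fold change of 2.01 ± 0.26 (SE, adjusted p = 2.225e-05), and by 1.62 ± 0.27 on the log2 scale in CB1R KO lungs against Control (adjusted p = 0.000378). Between CB1R KO and WT bleomycin the log2 fold change was -0.39, with a 95% interval of -0.89 to 0.11 (adjusted p = 0.419).

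The Nos2 levels also moved with the style of the labels. The libraries labelled in capitals had the lowest Nos2 of their groups, 2.45 CPM in 1 Control library and 13.9 ± 1.59 (SD, n = 2) in WT bleomycin, beside 5.76 ± 0.685 (n = 3) and 24.0 ± 2.15 (n = 3) in libraries labelled in lower case. All 4 CB1R KO libraries are labelled in lower case, at 15.3 ± 2.16 CPM, and lay below the 3 WT bleomycin libraries of that style. With lower-case labels only, the change between CB1R KO and WT bleomycin was -0.66 ± 0.13 on the log2 scale (SE, adjusted p = 0.1162), and with label style as a term it was -0.70 ± 0.13 (adjusted p = 0.04907), which passed the threshold. The rise against Control was past the threshold in both settings. What the label style stands for is not given in the sources used here.

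Markers of monocyte-derived and interstitial macrophages moved with Nos2 between Control and bleomycin lungs, but not within the WT bleomycin group. Of the 12 markers of monocyte-derived and interstitial macrophages, 11 were higher in WT bleomycin than Control lungs. The summed level of the 12 was 1364 to 1601 CPM in Control, 6882 to 8487 in WT bleomycin and 4226 to 7339 in CB1R KO bleomycin libraries. This sum includes Fn1, which the study counts among fibrogenic markers. In CB1R KO lungs replicate 10 had the highest sum and the most Nos2. In WT bleomycin lungs replicate 4, with the most Nos2, had the lowest sum (6882 CPM), and replicate 7, with the least Nos2, had 8473 CPM. Replicate 7 is labelled in capitals and replicate 4 in lower case, so label style is mixed into this contrast. WT replicates 2 and 5, also in lower case, had less Nos2 than replicate 4 and sums of 8159 and 8487 CPM. Of 10 alveolar macrophage markers, 4 were lower and 1 higher in WT bleomycin than Control lungs, with a median log2 fold change of -0.19. Their summed level did not fall, at 779.9 to 2048 CPM (median 864.1) in Control and 896.8 to 1388 CPM (median 1225) in WT bleomycin libraries. Of the 7 neutrophil markers tested, 5 were lower in WT bleomycin than in Control lungs. None of the listed macrophage or neutrophil markers was at 0 throughout a group, and their part in the Nos2 result was not tested.

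Nos3, the endothelial synthase, was at 37.0, 38.6, 39.6 and 41.8 CPM in Control, at 53.9, 53.8, 63.4, 66.9 and 52.7 in WT bleomycin, and at 43.0, 42.8, 62.3 and 50.2 in CB1R KO bleomycin libraries. The WT bleomycin libraries were all above Control, and 3 of the 4 CB1R KO libraries were below all WT bleomycin libraries. Nos3 rose 1.48-fold in WT lungs (log2 fold change 0.57 ± 0.11, adjusted p = 0.0006934). Against Control, CB1R KO lungs had a log2 fold change of 0.34 ± 0.12 (adjusted p = 0.03365), a call that was lost without Control replicate 3, 21 or 24 or without CB1R KO replicate 10 or 11 (adjusted p from 0.0627 to 0.1086). Between CB1R KO and WT bleomycin the log2 fold change was -0.23, with a 95% interval of -0.46 to 0.00296 (adjusted p = 0.2997), and without CB1R KO replicate 10 it was -0.35 (adjusted p = 0.04852), which passed the threshold.

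The endothelial markers did not move with Nos3. Of 10 such markers, 9 were lower and 0 higher in WT bleomycin than Control lungs, also 0 higher at an unadjusted p under 0.05, with a median log2 fold change of -0.51. Their summed level was 4428 to 5207 CPM in Control, 2854 to 3384 in WT bleomycin and 3288 to 3736 in CB1R KO bleomycin libraries. Among them, Kdr, a receptor of vascular endothelial growth factor, fell by 1.02 (adjusted p = 1.573e-05) and Tek, the angiopoietin receptor, fell by 0.93 on the log2 scale (adjusted p = 6.901e-08). In CB1R KO against WT bleomycin lungs Tek was higher, with a log2 fold change of 0.29 (adjusted p = 0.0391), a call lost without Control replicate 21 or 24, WT replicate 5, 4-B2 or 7, or CB1R KO replicate 8, 9 or 11 (adjusted p up to 0.1281). That call was also lost with edgeR on 2 groups (adjusted p = 0.07152), label style as a term (0.1093) and lower-case labels only (0.2848). Exons of Nos3 overlap those of Atg9b on the opposite strand in the GENCODE annotation used for this check, and the library kit is not stated to keep the strand. Atg9b, an autophagy gene, had 1.67 to 16.4 estimated counts in Control, 115 to 204 in WT bleomycin and 62.5 to 287.8 in CB1R KO bleomycin libraries, beside 618 to 648, 849.8 to 1015 and 658.3 to 2719 for Nos3. Reads from the shared part of these genes cannot be told apart without the strand, and the part of Atg9b in the Nos3 result was not tested.

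Nos1, the neuronal synthase, rested on 3.00 to 15.8 estimated counts per library. It was at 0.238, 0.180, 0.897 and 0.902 CPM in Control, at 0.634, 0.618, 0.438, 0.623 and 0.926 in WT bleomycin, and at 0.392, 0.422, 0.311 and 0.295 in CB1R KO bleomycin libraries. Control libraries spanned nearly the whole range, and the CB1R KO libraries lay below all WT bleomycin libraries. The highest CB1R KO library, replicate 9 at 0.422 CPM, was close to WT replicate 5 at 0.438 CPM. These libraries held 7.005 and 7.328 estimated counts of Nos1. In CB1R KO against WT bleomycin the log2 fold change was -0.90, with a 95% interval of -1.85 to 0.05 (adjusted p = 0.323). A difference in Nos1 was not detectable at this depth in the other comparisons either (log2 fold change 0.24 ± 0.43 in WT and -0.66 ± 0.48 in CB1R KO lungs against Control).

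Gch1 codes for GTP cyclohydrolase, the first and rate-limiting enzyme in the synthesis of tetrahydrobiopterin. It was at 15.4, 17.4, 19.4 and 15.9 CPM in Control, at 26.0, 29.6, 26.8, 33.4 and 25.9 in WT bleomycin, and at 26.2, 26.7, 28.1 and 26.1 in CB1R KO bleomycin libraries. No bleomycin library reached down to the Control range, and the CB1R KO libraries lay within the range of the WT bleomycin libraries. Gch1 rose 1.66-fold in WT (log2 fold change 0.73 ± 0.09, adjusted p = 1.863e-05) and 1.57-fold in CB1R KO lungs (0.65 ± 0.10, adjusted p = 0.0001605). The log2 difference between CB1R KO and WT bleomycin was -0.08, with a 95% interval of -0.27 to 0.11.

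The other genes of tetrahydrobiopterin synthesis and recycling did not all follow Gch1. Of 7 tested, 2 were higher and 1 lower in WT bleomycin than in Control lungs, beside 25.0% higher and 23.9% lower of all genes tested. Pcbd1, which recycles the cofactor, had a log2 fold change of 0.79 (adjusted p = 0.001062). Spr, which makes the last step of synthesis, fell by 0.28 on the log2 scale (adjusted p = 0.02562), a call lost without Control replicate 3 or 21, without WT replicate 4 or 2, and with lower-case labels only. Pts, the step before it, had a log2 fold change of -0.09 (adjusted p = 0.4882). In CB1R KO lungs against Control 2 were higher, among them Pcbd1 at 0.79, and none was lower in edgeR or DESeq2, nor at an unadjusted p under 0.05.

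Ass1, argininosuccinate synthase, takes the first step from citrulline back to arginine. It was at 28.5, 36.8, 32.1 and 38.4 CPM in Control, at 45.4, 41.8, 42.2, 45.5 and 46.0 in WT bleomycin, and at 30.3, 29.1, 41.8 and 36.0 in CB1R KO bleomycin libraries. WT bleomycin libraries lay above Control and above CB1R KO libraries, but the highest CB1R KO library, replicate 10 at 41.75 CPM, was close to the lowest WT library at 41.82. Ass1 rose 1.30-fold in WT lungs (log2 fold change 0.38 ± 0.11, adjusted p = 0.00938), and in CB1R KO lungs its log2 fold change against Control was 0.02, with a 95% interval of -0.23 to 0.26 (adjusted p = 0.92). Between CB1R KO and WT bleomycin it was -0.36 ± 0.11, with a 95% interval of -0.59 to -0.13, which did not pass the threshold in edgeR (adjusted p = 0.1154) and passed it with DESeq2 (adjusted p = 0.04319 over all libraries) and without CB1R KO replicate 10 (-0.47, adjusted p = 0.02281 in edgeR).

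Asl, argininosuccinate lyase, completes that return to arginine. Its levels were 19.1 to 22.7 CPM in Control, 21.4 to 25.2 in WT bleomycin and 18.4 to 23.8 in CB1R KO bleomycin libraries, and all groups overlapped. The log2 fold change was 0.17, with a 95% interval of -0.02 to 0.36, in WT lungs against Control (adjusted p = 0.1204), and -0.15, with an interval of -0.34 to 0.03, between CB1R KO and WT bleomycin (adjusted p = 0.3923).

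Arginine also reaches the synthases by uptake. The 6 genes listed for arginine uptake include exchangers. Of these, 4 were higher and 0 lower in WT bleomycin than Control lungs, beside 25.0% higher and 23.9% lower of all genes tested. None of the 6 was lower at an unadjusted p under 0.05 either. The direction of arginine transport was not measured. Slc7a1 and Slc7a2, the cationic amino acid transporters, had log2 fold changes of 0.47 (adjusted p = 0.0004544) and 0.80 (adjusted p = 0.001647). Slc7a6 and Slc7a7, the light chains of the exchangers that pair with Slc3a2, had 0.81 (adjusted p = 4.516e-05) and 0.62 (adjusted p = 0.0002584). Against Control, 2 of the 6 passed in CB1R KO lungs, Slc7a6 at 0.61 and Slc7a7 at 0.52, beside 35.4% of all genes tested. Between CB1R KO and WT bleomycin Slc7a1 had a log2 fold change of -0.33 (adjusted p = 0.07911).

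Arg2, the mitochondrial arginase, turns arginine into ornithine and urea. It was at 5.94, 6.49, 7.04 and 10.4 CPM in Control, at 7.67, 8.59, 8.44, 9.00 and 11.1 in WT bleomycin, and at 7.65, 13.1, 8.95 and 8.10 in CB1R KO bleomycin libraries. Control replicate 26 and CB1R KO replicate 9 were high within their groups, and all groups overlapped. The libraries labelled in capitals, Control replicate 26 and WT replicates 4-B2 and 7, had the highest Arg2 of their groups. The log2 fold change was 0.26 ± 0.19 in WT (adjusted p = 0.2836) and 0.33 ± 0.20 in CB1R KO lungs (adjusted p = 0.2156) against Control, and the latter became 0.53 without Control replicate 26 (adjusted p = 0.04991) and 0.54 with lower-case labels only (adjusted p = 0.04821). Between CB1R KO and WT bleomycin it was 0.07, with a 95% interval of -0.34 to 0.48. Exons of Arg2 overlap those of Vti1b on the opposite strand, and Vti1b, a vesicle fusion gene, had a log2 fold change of 0.12 in WT against Control lungs (adjusted p = 0.09242).

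Arg1, the cytosolic arginase, was at 1.78, 48.1, 1.86 and 1.80 CPM in Control, at 16.7, 16.7, 31.2, 69.8 and 21.5 in WT bleomycin, and at 7.20, 16.7, 26.1 and 15.6 in CB1R KO bleomycin libraries. Control replicate 21 stood far above the other Control libraries, and the same library had the highest summed level of alveolar macrophage markers, 2048 CPM beside 779.9 to 873.1 in the other Control libraries, a relation that was not tested. With that library included, the log2 fold change of Arg1 in WT against Control lungs was 1.21 ± 0.83 (adjusted p = 0.2486), and without it 4.09 (adjusted p = 0.0001251). The change of Arg1 thus passed the threshold only once Control replicate 21 was left out or with limma on log2 TPM, where it was 2.32 with a pseudocount of 1 (adjusted p = 0.02102) and 2.67 with 0.1 (adjusted p = 0.01649). Arg2 held 77.5% to 85.8% of the summed arginase TPM in the other 3 Control libraries, 12.3% in Control replicate 21, and 11.8% to 34.9% in WT bleomycin libraries.

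The list of 21 ornithine, urea and polyamine genes includes Arg1. Of these, 17 were tested, while Otc, Cps1, Slc25a2 and Agmat were not. In WT bleomycin lungs 9 were higher and 2 lower than in Control, beside 25.0% higher and 23.9% lower of all genes tested. The 17 genes had a median log2 fold change of 0.54. Aldh18a1 and Pycr1, which make proline and ornithine precursors from glutamate, had log2 fold changes of 1.09 (adjusted p = 7.765e-06) and 1.40 (adjusted p = 4.714e-05). Sat1 and Smox, enzymes that break down polyamines, had 0.65 (adjusted p = 3.696e-05) and 0.54 (adjusted p = 4.632e-05). In CB1R KO lungs 7 were higher and 0 lower than in Control in edgeR, beside 19.0% higher and 16.3% lower of all genes tested. The count of higher genes was 5 to 11 over 25 alternatives (11 without Control replicate 21). In DESeq2 1 was lower, and at an unadjusted p under 0.05 in edgeR 2 were lower. Smox was lower in CB1R KO than in WT bleomycin lungs, by a log2 fold change of -0.34 ± 0.07 (adjusted p = 0.04156), the only gene of the 6 pathway lists that passed in this comparison in edgeR. With 1 library left out its adjusted p ranged from 0.03018 to 0.1443, and the call was lost without Control replicate 21 or 24, WT replicate 2, 5, 4-B2 or 7, or CB1R KO replicate 8, 9 or 11. It was also lost with no count filter (adjusted p = 0.06086), edgeR on 2 groups (0.07207), label style as a term (0.08412), lower-case labels only (0.2217) and limma on log2 TPM (0.199 and 0.2043).

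Ddah1 and Ddah2 degrade asymmetric dimethylarginine, a methylated arginine that inhibits the synthases. Ddah1 was at 42.4, 32.8, 30.2 and 24.5 CPM in Control, at 59.1, 61.8, 45.6, 57.3 and 40.9 in WT bleomycin, and at 46.0, 47.6, 58.2 and 47.5 in CB1R KO bleomycin libraries. All CB1R KO libraries were above Control, and 1 WT bleomycin library, replicate 7, was within the Control range. Ddah1 rose 1.63-fold in WT (log2 fold change 0.70 ± 0.15, adjusted p = 0.001527) and 1.53-fold in CB1R KO lungs (0.62 ± 0.16, adjusted p = 0.00789). The log2 difference between CB1R KO and WT bleomycin was -0.09, with a 95% interval of -0.41 to 0.23.

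Ddah2 was at 65.9, 61.2, 58.6 and 53.4 CPM in Control, at 69.9, 72.8, 72.9, 76.3 and 51.2 in WT bleomycin, and at 63.2, 70.3, 65.9 and 89.3 in CB1R KO bleomycin libraries. WT replicate 7 was below all Control libraries and the other 4 WT libraries were above them. The log2 fold change in WT against Control lungs was 0.20 ± 0.12 (adjusted p = 0.1902), and without WT replicate 7 it was 0.29 (adjusted p = 0.02799), which passed the threshold. In CB1R KO lungs against Control it was 0.28 ± 0.13 (adjusted p = 0.1028), and this difference too passed without WT replicate 7 (0.28, adjusted p = 0.04215). The difference of Ddah2 between CB1R KO and WT bleomycin was 0.08, with a 95% interval of -0.18 to 0.33. Ddah1 held 14.9% ± 1.95 (SD, n = 4) of the summed TPM of these genes in Control, 21.4% ± 2.64 (n = 5) in WT bleomycin and 19.3% ± 3.64 (n = 4) in CB1R KO bleomycin libraries. Methylated arginines come from proteins modified by the protein arginine methyltransferases. Of 9 of these, 2 were higher and 2 lower in WT bleomycin than in Control lungs, beside 25.0% higher and 23.9% lower of all genes tested. Prmt1, which makes most asymmetric dimethylarginine, had a log2 fold change of 0.44 (adjusted p = 0.0001384), and Prmt8 fell by 0.76 on the log2 scale (adjusted p = 0.00565). Between CB1R KO bleomycin and Control none of the 9 passed in edgeR or DESeq2, and 1 had an unadjusted p under 0.05.

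**Figure D3:**
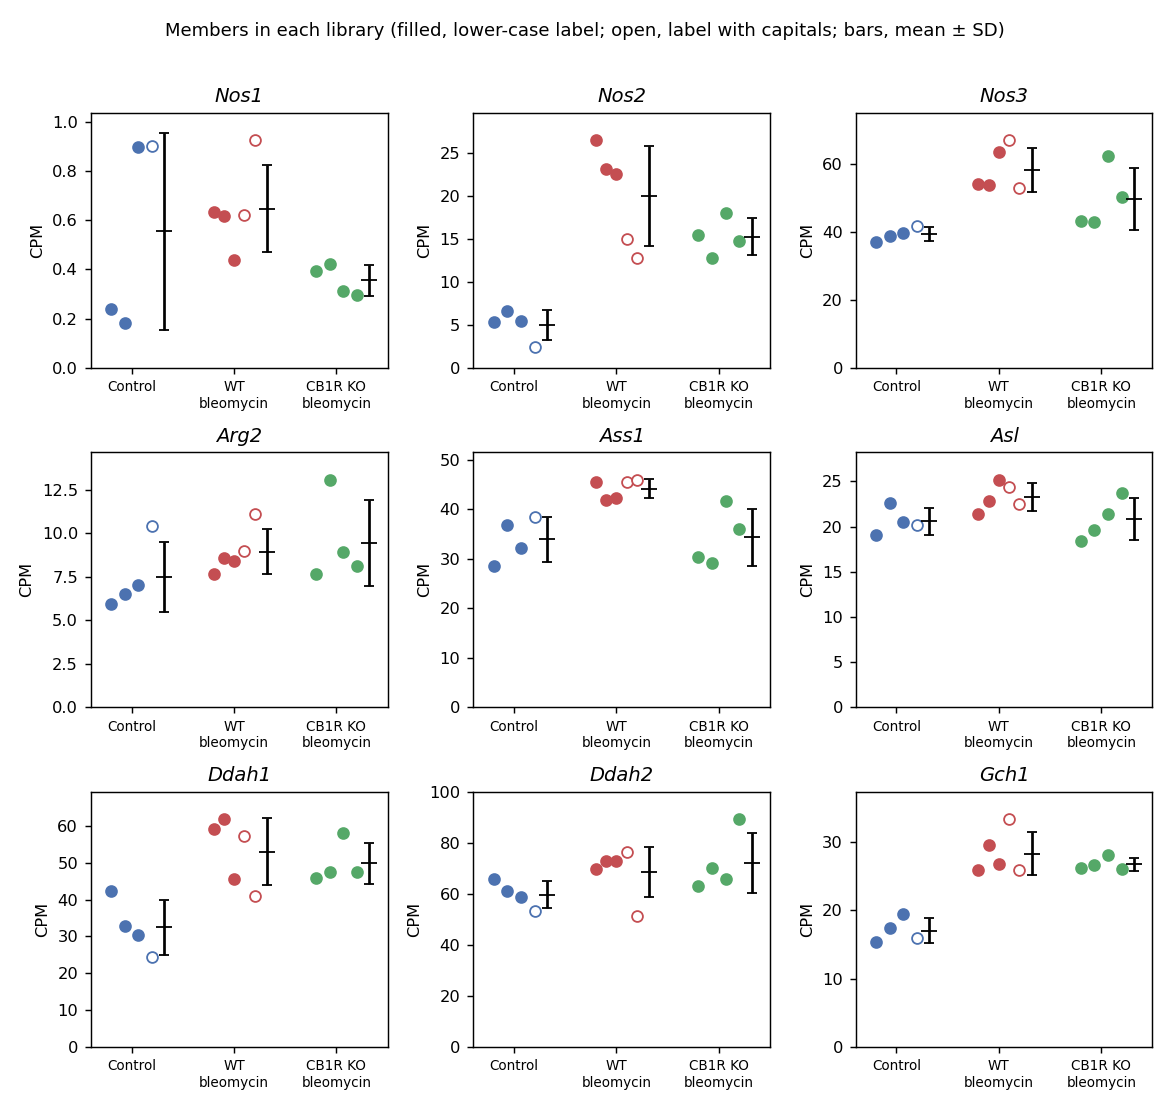
Each panel gives 1 member in CPM on an axis that starts at 0, with a point per library in the 3 groups and the mean ± SD as a bar; filled points are libraries labelled in lower case and open points those labelled in capitals. Nos2, Nos3 and Gch1 have all bleomycin libraries above all Control libraries, and the open points of Nos2 are the lowest of their groups.

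Downstream of the synthases, genes of the nitric oxide receptor and of cGMP signalling were mostly lower after bleomycin. Of 13 tested, 7 were lower and 2, Pde1a and Vasp, higher in WT bleomycin than Control lungs. Of all genes tested, 23.9% were lower and 25.0% higher. The 13 listed genes had a median log2 fold change of -0.36. They include phosphodiesterases, which break down cGMP, and cGMP itself was not measured. The subunits of soluble guanylyl cyclase, the receptor of nitric oxide, fell by 0.77 for Gucy1a1 (adjusted p = 9.651e-05) and by 0.82 for Gucy1b1 (adjusted p = 4.762e-05) on the log2 scale. Pde5a and Pde3a, phosphodiesterases, fell by 0.78 (adjusted p = 7.444e-05) and by 0.66 (adjusted p = 1.252e-05). In CB1R KO lungs 8 of the 13 were lower and 0 higher than in Control, with the same counts in DESeq2. Among the 8 were Gucy1b1 at -0.52 and Pde2a at -1.47, where Control libraries spanned 3.485 to 11.77 CPM of Pde2a. Of all genes tested, 16.3% were lower and 19.0% higher in this comparison.

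Of 13 genes whose products bind the synthases or remove nitric oxide, 7 were higher and 3 lower in WT bleomycin than in Control lungs. The count of lower genes was 1 without WT replicate 4-B2 or with lower-case labels only. Of all genes tested, 25.0% were higher and 23.9% lower. Cav1, the caveolin that holds the endothelial synthase inactive, fell by 0.93 on the log2 scale (adjusted p = 1.933e-05). Akt1, the kinase that activates the endothelial synthase, had a log2 fold change of 0.30 (adjusted p = 0.001386), and Cygb, a globin that consumes nitric oxide, of 0.76 (adjusted p = 9.264e-05). In CB1R KO lungs 6 of the 13 were higher and 2 lower than in Control, beside 19.0% higher and 16.3% lower of all genes tested. Between CB1R KO and WT bleomycin none of the genes for the cofactor, uptake, methyltransferases, cGMP signalling or synthase partners passed in edgeR, and at an unadjusted p under 0.05 the counts were 1 of 7, 2 of 6, 3 of 9, 7 of 13 and 2 of 13, beside 17.0% of all genes tested. DESeq2 called 0, 1, 2, 1 and 0 of these genes.

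**Figure D4:**
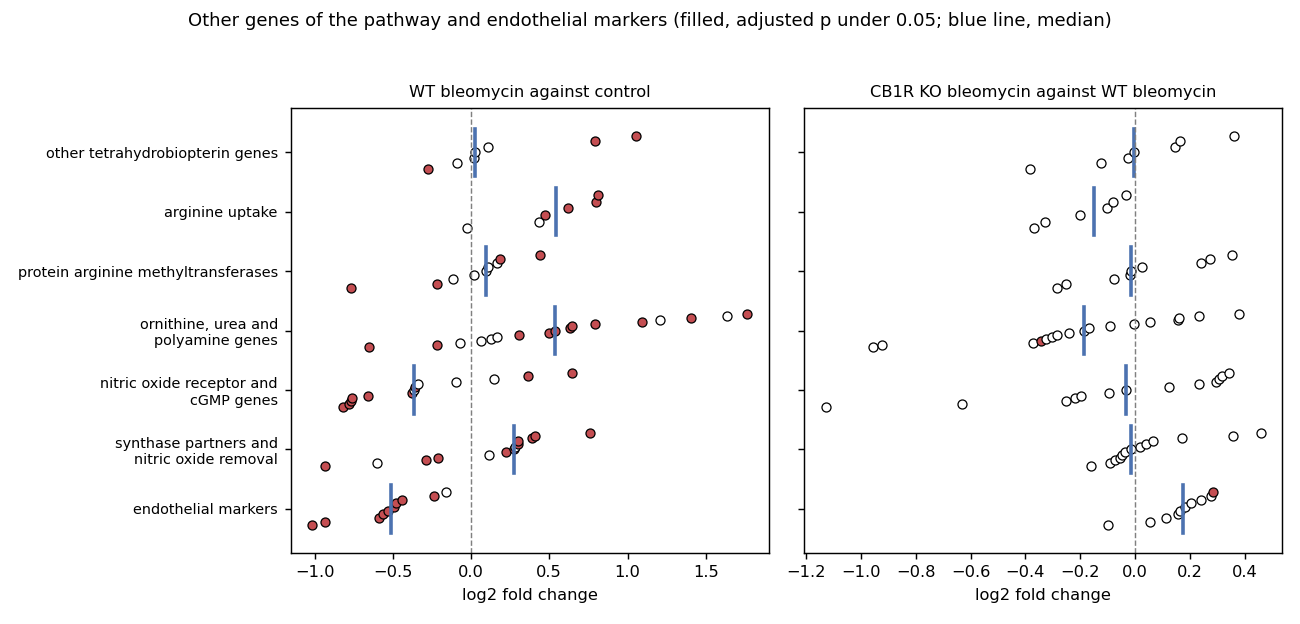
Points give the log2 fold change of each tested gene of the pathway lists and of the endothelial markers, filled for an adjusted p under 0.05, and blue lines the median of each list. In WT bleomycin against Control the median is 0.55 for arginine uptake, -0.36 for cGMP genes and -0.51 for endothelial markers, and between CB1R KO and WT bleomycin only Smox and Tek are filled.

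Other cell type markers were counted between WT bleomycin and Control lungs as well, where 25.0% of all genes tested were higher and 23.9% lower. Type II cell markers were lower in 6 of 8 and higher in 0, and club and airway secretory markers lower in 5 of 8 and higher in 1, while alveolar macrophage markers are given with Nos2 above. Fibroblast markers were higher in 4 of 8 and lower in 2, smooth muscle markers higher in 3 of 8 and lower in 2, type I markers higher in 2 of 8 and lower in 2, ciliated markers higher in 1 of 8 and lower in 1, and nerve and Schwann cell markers higher in 2 of 4 and lower in 2. In CB1R KO against WT bleomycin lungs, Sftpc, Sftpa1 and Lamp3 of the 8 type II markers were higher, with log2 fold changes of 0.66, 0.84 and 0.51, and Actg2 and Tagln of the 8 smooth muscle markers were lower, at -0.80 and -0.63. Fn1, a listed macrophage marker that the study counts among fibrogenic markers, was lower at -0.86, while the other 11 of its list did not pass. The nerve marker Tubb3 was lower as well, at -1.10. Of all genes tested, 0.359% were higher and 0.620% lower in CB1R KO than in WT bleomycin lungs. Only 1 gene of all passed there without CB1R KO replicate 9, so most of these marker calls were lost in that setting. The part of these cell types in the members' results was not tested.

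The genes most like each member across the 13 libraries were found by the root mean square difference in log2 CPM after centring each gene. For Nos2 these were Kif14 at 0.316 and Lhfpl2 at 0.327, against a spread of 0.962 of Nos2 itself. For Gch1 they were Il18bp at 0.0873 and Nipa2 at 0.0991, against a spread of 0.343. Nos3 was nearest to 3110082I17Rik at 0.101 and Tuba1b at 0.103 (spread 0.278), Ddah1 to Abcc4 at 0.122 and Laptm5 at 0.125 (spread 0.388), and Ass1 to Slc30a4 at 0.120 and Prmt1 at 0.122 (spread 0.241). The pairs of Asl were Aimp1 and Swi5, those of Arg2 Tmem120b and Tspan11, those of Ddah2 Psen2 and Slc66a2, and those of Nos1, at its low counts, Ctla2b and Ifitm5.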

How the data were processed

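Lung mRNA was sequenced in 13 libraries as paired-end reads from libraries of a kit that is not stated to keep the strand. The authors quantified reads with Kallisto on the mouse reference of Ensembl release 105 (GRCm39) and summed protein-coding transcripts per gene. The deposited tables hold estimated counts, not normalized, and TPM by gene symbol. Of the count values, 64.8% lay over 0.001 from a whole number. The 13 single-sample files equalled these tables, and 1 TPM column that matches no sample was not used.

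Estimated counts were rounded, filtered with filterByExpr, scaled by TMM and tested in 1 fit of 13 libraries by edgeR 4.0.16 in R 4.3.3 (quasi-likelihood test), with Benjamini-Hochberg adjustment over 15315 genes at 0.05. Fold changes are given with standard errors, of which the median over genes was 0.114, 0.113 and 0.119 in the 3 comparisons. Libraries were taken as separate samples; for WT replicates 4 and 4-B2, which share a number, p-values may measure technical spread. Alternatives were other count filters and normalizations, DESeq2 1.42.0, limma 3.58.1 on log2 TPM, fits of 2 groups, label style, thinning of CB1R KO replicate 11 and leaving out each library. The procedure was tested on simulated data. The members, the pathway lists and the marker lists were chosen with earlier results of these data known. The genes named are the members, up to 4 of each list with the lowest p, and the 2 nearest genes of each member; Arg1, Atg9b, Vti1b and the named markers were added after their values were seen. Of the genes that this rule selects, some are counted in their lists and not reported singly here. Sequences come from RefSeq on GRCm38.p6 and overlaps of exons from GENCODE M21, another build than that of the files, so gene positions of the files are not given. Python 3.11.15, pandas 2.3.3, numpy 2.4.6 and matplotlib 3.10.9 made tables and plots.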

Additional observations from a re-analysis of the deposited data

Results flagged for a closer look

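Of 27 sets of 1 member in 1 group tested for a library apart from the rest, 2 were found, where chance gives about 1 in 20. Ddah1 in CB1R KO replicate 10 was at 58.21 CPM, with the other CB1R KO libraries between 45.98 and 47.59. Ddah2 in WT bleomycin replicate 7 was at 51.22 CPM, with the other WT bleomycin libraries between 69.87 and 76.27.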

How the results depend on the processing

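No paired analysis was possible because the groups share no replicate numbers in the labels. Of 661 values of single members under alternative settings, 634 kept their direction and their side of the threshold, 9 came to pass it, 5 ceased to pass it and 13 changed sign. The count of members past the threshold between CB1R KO and WT bleomycin was 0 and became 1 with DESeq2 on all libraries or on 2 groups (Ass1) and with label style as a term (Nos2), and it ranged from 0 to 2 with 1 library left out, being 2 without CB1R KO replicate 10 (Nos3 and Ass1). Of all genes, 150 passed in that comparison, and 640 with DESeq2, 644 with DESeq2 on 2 groups, 93 with limma on log2(TPM + 0.1), 88 with edgeR on 2 groups, 41 with label style as a term, 6 with lower-case labels only, and 1 to 653 with 1 library left out (1 without CB1R KO replicate 9, 653 without replicate 10). Fewer libraries enter the fits of lower-case labels and of 2 groups, while the fit with label style as a term kept every library. The cause of these differences was not tested. The sign changed for log2 fold changes near 0: Ass1 in CB1R KO against Control with upper-quartile normalization (-0.0004989) and Asl with CB1R KO replicate 11 thinned (-0.008067). With 1 library left out, the ranges of those that changed sign were -0.0545 to 0.57 for Nos1 in WT against Control, -0.12 to 0.16 for Arg2 and -0.0417 to 0.14 for Ddah2 in CB1R KO against WT bleomycin, and -0.0818 to 0.0908 for Ass1 and -0.0504 to 0.0764 for Asl in CB1R KO against Control. In both bleomycin groups against Control the counts of members and genes were within 1.5 times of the reported ones in every setting. Depth limits Nos1, which had values in only 20 or 21 of the 25 alternatives in each comparison. A stricter filter was among the settings that left Nos1 out.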
